A study of Homo sapiens with 6 samples.

Results

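The genes described here are 10 parts of the machinery that carries proteins between cytoplasm and nucleus: the importin α adaptors KPNA1, KPNA2, KPNA3, KPNA4, KPNA5 and KPNA6, the importin β carrier KPNB1, the small GTPase RAN, and the exportins CSE1L and XPO1. They were taken by symbol from a list of transport genes, and all 10 were found among the 38100 genes of the table and among the 17720 genes with enough counts to test. The RNA came from HK2 cells, an immortalized line of human proximal tubular epithelium, and was poly(A)-selected and sequenced. AdCtrl cells received a control adenovirus and AdSIRT4 cells an adenovirus carrying SIRT4, a sirtuin best known from mitochondria. Both groups were stimulated with TGF-β1, the cytokine that drives matrix production in renal fibrosis, and both are labelled wild type, so every comparison is between 3 AdSIRT4 and 3 AdCtrl samples of stimulated cells. The question for these genes comes from the study itself, which follows importin α1, the product of KPNA2, in the entry of SIRT4 into the nucleus: did the transcripts of the carriers differ when SIRT4 was in excess?

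In classical nuclear import an importin α protein binds a nuclear localization signal on the cargo, and KPNB1 binds importin α and takes the complex through the nuclear pore. Inside the nucleus RAN in its GTP-bound form releases the cargo, after which CSE1L returns importin α to the cytoplasm. XPO1 also works with RAN-GTP, but it exports proteins that carry a leucine-rich export signal. The importin α genes form subfamilies, with KPNA2 in one, KPNA3 and KPNA4 in another and KPNA1, KPNA5 and KPNA6 in a further one, and they differ in the cargoes they prefer.

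How well the counts can tell these relatives apart is shown by their longest shared stretches. The windows below are 30-base stretches of coding sequence from GENCODE transcripts on GRCh38, 5′ to 3′ on the strand of the gene. Capitals mark the longest unbroken run shared by both genes of a pair. Flanking bases are in lower case whether or not they match. The windows were chosen because they hold the longest run shared within each subfamily and, for KPNA2, a run shared with another subfamily. The pair from the KPNA1, KPNA5 and KPNA6 subfamily with the longest run shared 26 bases, in exon 9 of 14 of KPNA1 (chr3:122449617-122449646, minus strand) and exon 9 of 15 of KPNA5 (chr6:116722217-116722246, plus strand):
KPNA1: caGATGGACCCAATGATAAAATTCAAGCgg
KPNA5: ccGATGGACCCAATGATAAAATTCAAGCag
KPNA3 and KPNA4 shared 23 bases, in exon 6 of 17 of both genes (chr13:49732409-49732438 and chr3:160531500-160531529, both on the minus strand):
KPNA3: ccgATTGATGACTTAATAAAATCTGGgatt
KPNA4: ccaATTGATGACTTAATAAAATCTGGaata
KPNA2 and KPNA3 shared 14 bases, in exon 2 of 11 of KPNA2 (chr17:68037173-68037202, plus strand) and exon 1 of 17 of KPNA3 (chr13:49792443-49792472, minus strand):
KPNA2: ttcacagaTTCAAGAACAAGGGaaaagaca
KPNA3: tcaagagcTTCAAGAACAAGGGccgcgatg

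Over the aligned coding sequences, the 4 pairs within a subfamily were 72.7 to 75.5% identical and the 11 pairs across subfamilies 57.1 to 62.1%. No stretch of 31 bases was shared between any of the 10 genes, so a read of that length placed without mismatch in one coding sequence could not come from another. Shared sequence with pseudogenes was a different matter. Of the 31-base stretches of the RAN coding sequence (chr12:130871879-130877678, plus strand), 65.1% also occurred in transcripts of 6 other annotated genes, led by the pseudogene RANP1. For KPNA2 (chr17:68035519-68046842, plus strand) the share was 43.1%, again with 6 other genes and led by KPNA2P3. KPNA4 shared 27.0%, KPNA6 8.35% and KPNB1 0.384% of their stretches, and KPNA1, KPNA3, KPNA5, XPO1 and CSE1L none. The values of RAN and KPNA2, and less so of KPNA4, are therefore uncertain. How far depends on whether reads of these stretches were placed on a copy or discarded. Pseudogenes were not analysed here: the counted genes held 0 with a member's symbol followed by P and a number, as in RANP1. Only coding sequence was searched, which was 651 of 1530 transcript bases for RAN, 1590 of 2181 for KPNA2 and 1566 of 8981 for KPNA4.

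The libraries held 42102861 to 53677241 counts in AdCtrl and 41537353, 85684748 and 80040053 in AdSIRT4 replicates 1 to 3. No member had fewer than 695 counts in any sample. SIRT4 itself was at 0.573, 1.11 and 1.11 CPM (counts scaled to library size with edgeR's TMM factors) in AdCtrl and at 51.2, 92.7 and 84.0 CPM in AdSIRT4, a log2 difference of 6.36 (adjusted p = 0.00801, edgeR's quasi-likelihood test with Benjamini-Hochberg adjustment over all tested genes). Of 8 epithelial markers, 7 had a mean of at least 1 FPKM (fragments scaled to transcript length and library size), whereas 8 of 14 proximal tubule markers, among them LRP2, CUBN, AQP1 and HNF4A, were below 0.1 FPKM. The other marker lists reached 1 FPKM in 0 of 5 endothelial, 0 of 4 podocyte, 2 of 5 immune (CD68 and CD14, with PTPRC, CD3E and MS4A1 below 0.1) and 2 of 5 fibroblast markers (LUM and COL1A1), and the summed FPKM of each list overlapped between the groups. The titles name HK2 throughout, although in the cell line field the digit after HK differs from sample to sample. The study describes its in vitro replicates as technical, so the p-values cover only the spread between these samples, and in bulk RNA fewer cells and less RNA per cell cannot be told apart.

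One library stood apart from the rest, and it touches most of what follows. Against the mean of AdSIRT4 replicates 2 and 3, AdSIRT4 replicate 1 was higher for short transcripts and lower for long ones, with a median log2 difference of 0.67 in the shortest of 10 equal length classes of tested genes (up to 1.32 kb) and -0.75 in the longest (from 8.79 kb). Its value lay outside the range of the other 5 samples for 8 of the 10 transport genes. The comparisons are therefore given with and without it. Once it is left out, both remaining AdSIRT4 libraries held more counts than any AdCtrl library, so depth and group cannot be told apart there. With the trend of each library with length removed, 0 of the 10 genes were called as well.

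No transport gene passed the test between the groups. With all 6 samples 0 of 10 passed an adjusted p of 0.05, where 0.0113% of all tested genes did, and 0 of 10 had an unadjusted p under 0.05, where 7.93% of all genes did. The adjusted p-values ran from 0.731 to 0.965 (edgeR's quasi-likelihood test, Benjamini-Hochberg). Without AdSIRT4 replicate 1 the counts were again 0 of 10 and 0 of 10, although 6.71% of the 18287 genes then tested were called and 24.3% had an unadjusted p under 0.05. DESeq2 and limma also called 0 of 10. The number of samples still limits what these zeros say, and the intervals below give the changes that remain compatible with the data.

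**Figure D1:**
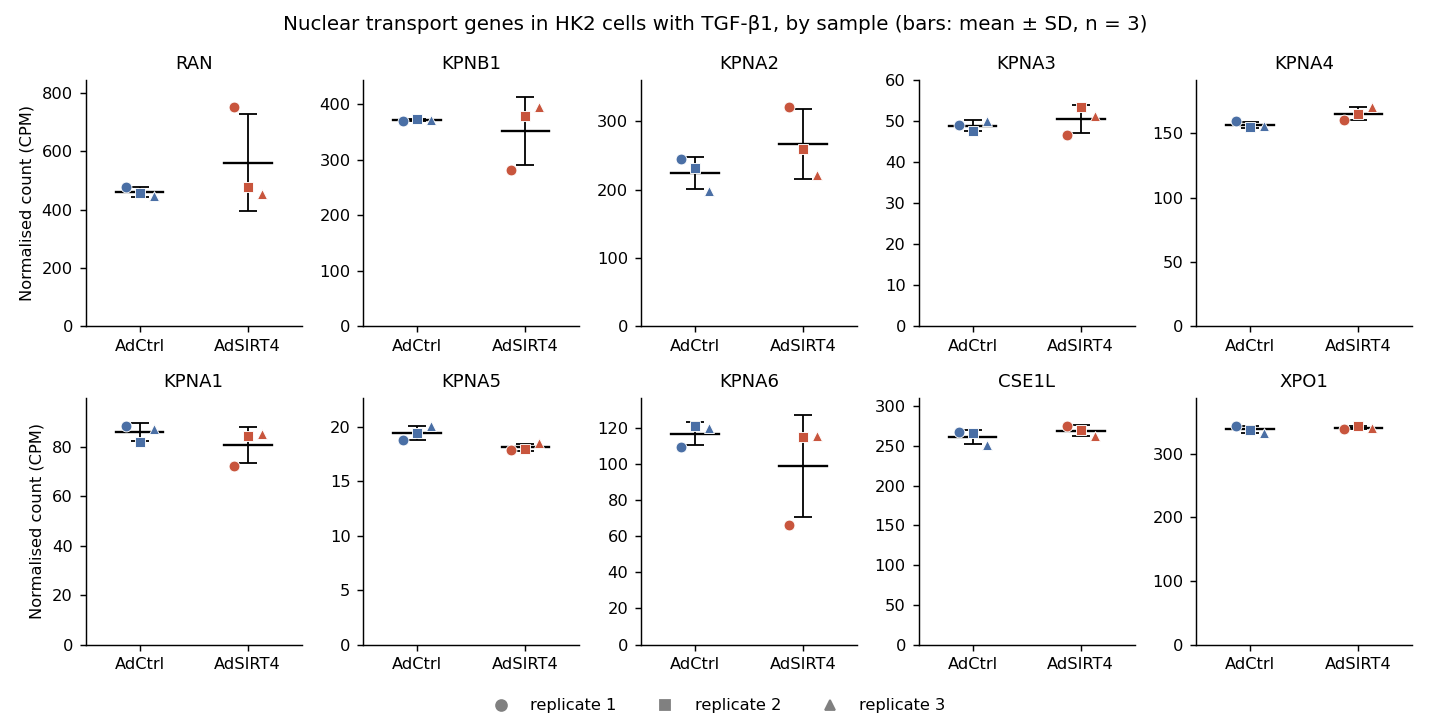
Normalised counts (CPM, vertical axes from 0) of the 10 transport genes in the 3 AdCtrl and 3 AdSIRT4 samples, with the mean and SD of each group as bars and the replicate number as the point shape. AdSIRT4 replicate 1 (circle) lies far from its group for RAN (752 CPM), KPNA6 (66.5 CPM) and KPNB1 (282 CPM), whereas XPO1 and CSE1L are nearly level over all 6 samples.

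KPNA2, the importin α that the study follows, was the most abundant adaptor. It gave 245, 231 and 198 CPM in AdCtrl replicates 1 to 3 and 321, 259 and 221 CPM in AdSIRT4 replicates 1 to 3. The groups overlapped: AdSIRT4 replicate 3 lay below the AdCtrl replicates 1 and 2. The log2 fold change was 0.25 ± 0.16 (SE, n = 3 per group), with a 95% interval from 0.910- to 1.55-fold (adjusted p = 0.731, edgeR's quasi-likelihood test, Benjamini-Hochberg). Without AdSIRT4 replicate 1 it was 0.09 ± 0.10, with an interval from 0.912- to 1.24-fold and an adjusted p of 0.624 by the same test. Compared with the AdCtrl sample of the same number, the AdSIRT4 samples were 1.31-, 1.12- and 1.11-fold higher. KPNA2 was also the adaptor with the widest spread within AdCtrl, at 225 ± 23.9 CPM (SD, n = 3).

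KPNA3 and KPNA4 form the subfamily that is best known for carrying cargoes such as NF-κB subunits. KPNA4 was at 159, 155 and 156 CPM in AdCtrl and at 160.5, 165 and 170.5 CPM in AdSIRT4, so that the lowest AdSIRT4 sample lay just above the highest AdCtrl sample. This gave a log2 fold change of 0.08 ± 0.09 (SE, n = 3) and an interval from 0.916- to 1.21-fold. With the trend with transcript length removed from each library the log2 fold change was 0.22, although KPNA4 did not follow that trend in AdSIRT4 replicate 1. There it deviated by -0.06 from the mean of AdSIRT4 replicates 2 and 3, where its length class had a median of -0.75. The adjusted p-values without and with that removal were 0.800 and 0.641 (edgeR's quasi-likelihood test, Benjamini-Hochberg). Groups that did not overlap in CPM were found for 2 of the 10 genes, KPNA4 (higher) and KPNA5 (lower), against 19.4% of all tested genes, and in FPKM both genes did overlap. KPNA3 was at 49.0, 47.5 and 50.0 CPM in AdCtrl and at 46.7, 53.4 and 51.2 CPM in AdSIRT4, with the lowest and the highest value both in AdSIRT4. Its log2 fold change was 0.05 ± 0.09, and 0.09 ± 0.05 without AdSIRT4 replicate 1 (adjusted p = 0.874 and 0.311, edgeR's quasi-likelihood test, Benjamini-Hochberg). For KPNA4 the value without that sample was 0.09 ± 0.05, with an adjusted p of 0.280 by the same test, the lowest of the 10 genes in that fit.

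The third subfamily, KPNA1, KPNA5 and KPNA6, serves among others the entry of STAT proteins. All its members had a fitted change below 0, and none passed the test. KPNA5, the least abundant member, was at 18.8, 19.4 and 20.1 CPM in AdCtrl and at 17.8, 18.0 and 18.5 CPM in AdSIRT4, with all AdSIRT4 samples below all AdCtrl samples. The log2 fold change of -0.10 ± 0.09 (SE, n = 3) had an interval from 0.807- to 1.08-fold (adjusted p = 0.767, edgeR's quasi-likelihood test, Benjamini-Hochberg) and was also -0.10 ± 0.07 without AdSIRT4 replicate 1. Removing the trend with transcript length from each library turned it to 0.03. Its sign reversed in 2 of 17 alternative settings, both with that removal. The removal relies on the implied transcript length, which for KPNA5 varied between samples.

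KPNA6 showed the largest fall in one library. It was at 109, 121 and 120.1 CPM in AdCtrl and at 66.5, 115 and 116 CPM in AdSIRT4. AdSIRT4 replicates 2 and 3 thus lay within the AdCtrl range and replicate 1 far below it. The log2 fold change of -0.24 ± 0.21 (SE, n = 3) was -0.02 ± 0.06 without AdSIRT4 replicate 1, and the interval narrowed from 0.599- to 1.20-fold to 0.901- to 1.08-fold. KPNA1 behaved alike on a smaller scale: 88.5, 81.8 and 87.3 CPM in AdCtrl against 72.2, 84.3 and 85.1 CPM in AdSIRT4. Its log2 fold change was -0.09 ± 0.10 with all samples and -0.02 ± 0.05 without AdSIRT4 replicate 1. For KPNA6 and KPNA1 the adjusted p-values were 0.773 and 0.797 with all samples (edgeR's quasi-likelihood test, Benjamini-Hochberg).

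KPNB1, the importin β that every classical import complex needs, had the smallest SD relative to its mean in AdCtrl CPM. The AdCtrl values were 369.8, 374 and 371 CPM (372 ± 2.00, SD, n = 3), and the AdSIRT4 values 282, 379 and 395 CPM. Here the lowest and the highest samples were both AdSIRT4. Its log2 fold change was -0.08 ± 0.15 with all samples and 0.05 ± 0.05 without AdSIRT4 replicate 1, so that the sign depended on that library. The adjusted p-values were 0.869 and 0.535 (edgeR's quasi-likelihood test, Benjamini-Hochberg), and the interval without that library ran from 0.964- to 1.12-fold. KPNB1 and KPNA3 joined KPNA4 and KPNA5 as genes with separate groups once the library was left out, giving 4 of 10 against 41.8% of all tested genes.

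RAN, the GTPase whose nucleotide state sets the direction of transport, had the largest fitted change. It was at 477, 456 and 445 CPM in AdCtrl and at 752, 477 and 453 CPM in AdSIRT4. Replicates 2 and 3 of AdSIRT4 fell within the AdCtrl range, and replicate 1 was 1.62 times their mean. A log2 fold change of 0.29 ± 0.20 (SE, n = 3; adjusted p = 0.741, edgeR's quasi-likelihood test, Benjamini-Hochberg) dropped to 0.01 ± 0.05 without replicate 1, and the upper bound of the fold interval from 1.71 to 1.10. The largest change over all 6 samples was thus among the smallest over the other 5.

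The exportins varied little. XPO1, the receptor for leucine-rich export signals, was at 345, 338 and 333 CPM in AdCtrl and at 339, 344 and 341 CPM in AdSIRT4, with every AdSIRT4 sample inside the AdCtrl range. Its log2 fold change was 0.01 ± 0.09, or 0.01 ± 0.05 without AdSIRT4 replicate 1, for which the interval ran from 0.936- to 1.09-fold. CSE1L, which recycles importin α, was at 268, 266 and 252 CPM in AdCtrl and at 276, 271 and 262 CPM in AdSIRT4. The groups of CSE1L overlapped, and its log2 fold change was 0.04 ± 0.09, or 0.02 ± 0.05 without that sample, with an interval from 0.936- to 1.10-fold. The adjusted p-values of XPO1 and CSE1L with all samples were 0.965 and 0.886 (edgeR's quasi-likelihood test, Benjamini-Hochberg).

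**Figure D2:**
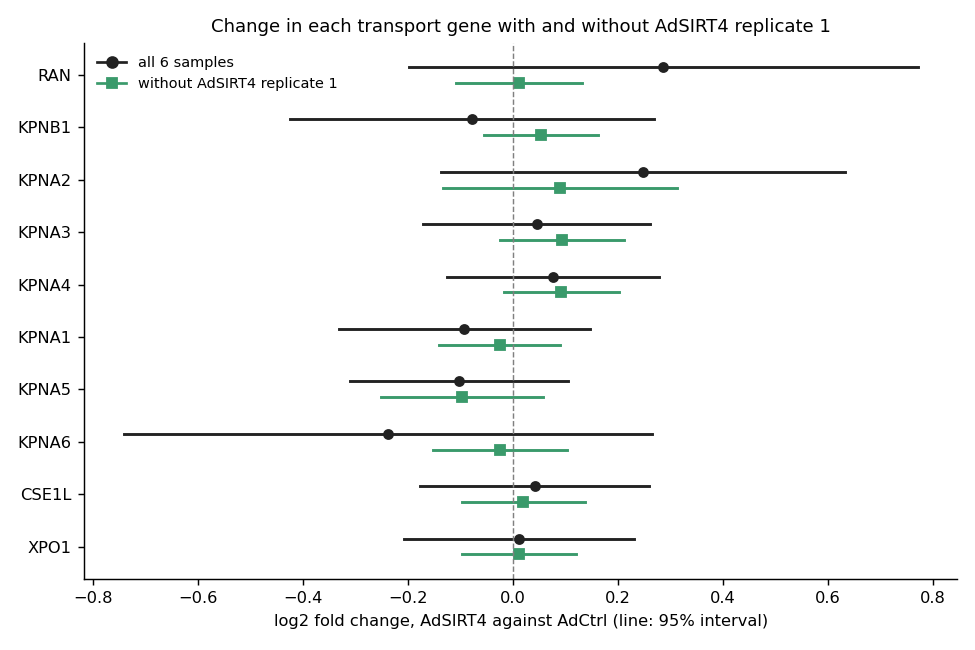
log2 fold change of AdSIRT4 against AdCtrl (horizontal axis) for each transport gene, with its 95% interval, from all 6 samples (black circles) and without AdSIRT4 replicate 1 (green squares). All 20 intervals cross 0, and each is narrower without that library, most of all for RAN and KPNA6.

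Leaving out AdSIRT4 replicate 1 lowered the standard error of all 10 genes, by a median factor of 1.82. The outer bounds over all 10 intervals were 0.599- and 1.71-fold with every sample and 0.840- and 1.24-fold without that library. In the same-numbered pairs of samples, 6 of the 10 genes differed in one direction in all 3 pairs, against 36.0% of all tested genes. KPNA2, KPNA4, RAN and CSE1L did so upwards (4 of 10, against 18.3%) and KPNA5 and KPNA6 downwards (2 of 10, against 17.7%). The ratios were near 1 in most pairs: for CSE1L they were 1.03, 1.02 and 1.04, and for RAN 1.57, 1.05 and 1.02.

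The deviation of AdSIRT4 replicate 1 from its group followed transcript length for some transport genes and not for others. KPNA2 (2.26 kb, as implied by the ratio of counts to FPKM) deviated by 0.43 on the log2 scale, where the median of its length class was 0.31. KPNA3, at 4.84 kb, deviated by -0.16 against a median of -0.15, and KPNB1, at 6.92 kb, by -0.46 against -0.44. These genes lay close to the genes of their length. RAN (2.83 kb) deviated by 0.69 where its class had 0.18, and KPNA6 (8.44 kb) by -0.80 where its class had -0.44. KPNA4 (10.2 kb) deviated by only -0.06 in a class with a median of -0.75. KPNA5 deviated by -0.03, and its class is uncertain, since its implied length ran from 9.10 to 11.8 kb between samples and its annotated transcript has 2150 bases. With the length trend removed from each library, the fitted log2 fold changes moved most for KPNA4, to 0.22, and KPNA5, to 0.03, and also by more than 1.5 times for KPNA1 (-0.0049), KPNB1 (-0.03), XPO1 (0.07), KPNA3 (0.09) and CSE1L (0.06). Among all tested genes, 12.9% lay within 0.1 of the other AdSIRT4 replicates, as did KPNA4, KPNA5, XPO1 and CSE1L.

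**Figure D3:**
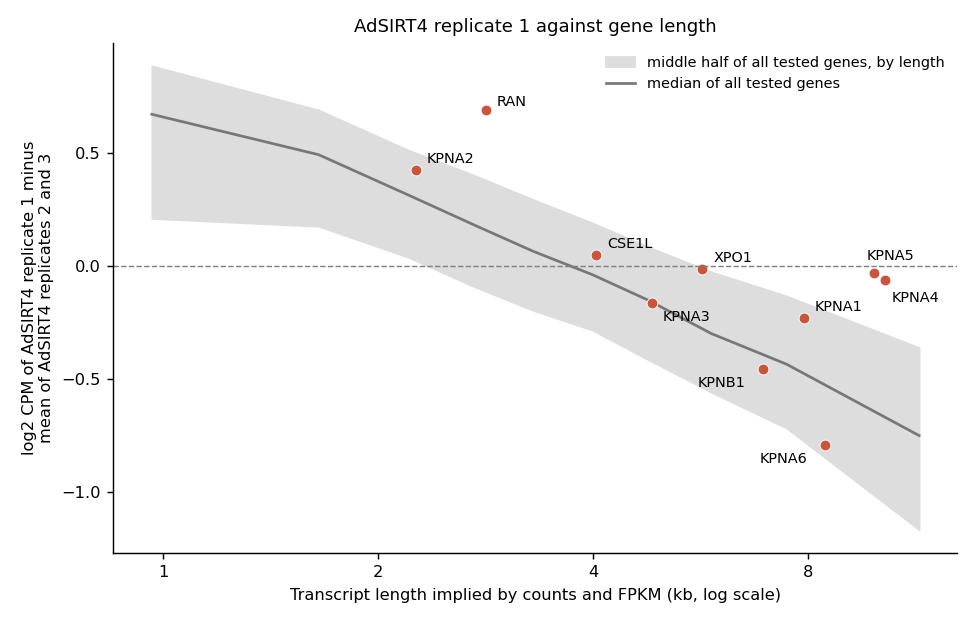
Difference between AdSIRT4 replicate 1 and the mean of AdSIRT4 replicates 2 and 3 (log2 CPM, vertical axis) against implied transcript length (kb, log axis) for the 10 transport genes, with the median (line) and the interquartile range (band) of all tested genes in 10 length classes. KPNA2, KPNA3 and KPNB1 lie near the line, RAN lies above it at 0.69, and KPNA4 stays near 0 where the line reaches -0.75, as does KPNA5, whose implied length varied between samples.

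Per unit of length, RAN was the most abundant transcript, with a mean of 179 ± 33.7 FPKM over the 6 samples (SD). KPNA2 followed at 108 ± 14.4, CSE1L at 65.6 ± 1.54, XPO1 at 59.7 ± 1.88 and KPNB1 at 52.4 ± 7.33 FPKM. The other adaptors were far lower: KPNA4 had 15.7 ± 0.909, KPNA6 12.8 ± 2.75, KPNA1 10.5 ± 1.10, KPNA3 10.2 ± 0.806 and KPNA5 1.86 ± 0.226 FPKM. For KPNA5 the FPKM rests on an implied length of 9.10 to 11.8 kb, whereas its annotated transcript has 2150 bases. Its place in this order and its part in the sums below are therefore uncertain. The ranges over samples were separate between RAN and KPNA2, KPNA2 and CSE1L, CSE1L and XPO1, KPNB1 and KPNA4, and KPNA3 and KPNA5. XPO1 and KPNB1 overlapped in range, as did KPNA4 and KPNA6, KPNA6 and KPNA1, and KPNA1 and KPNA3, although XPO1 was above KPNB1 and KPNA4 above KPNA6 in each of the 6 samples. KPNA6 was above KPNA1 in 5 samples and KPNA1 above KPNA3 in 4, so the order of these neighbours varied between samples. KPNA7, the other importin α of the KPNA2 subfamily, had 3 to 10 counts per sample and was not tested.

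Per unit of length, KPNA2 supplied most of the importin α transcripts, as far as its reads can be told from those of its pseudogenes. Its share of the summed FPKM of KPNA1 to KPNA6 was 67.6, 66.5 and 62.5% in AdCtrl and 76.4, 68.3 and 64.6% in AdSIRT4. KPNA2 had the shortest implied length of these adaptors (2.26 kb), and AdSIRT4 replicate 1 was higher for short transcripts. The highest share belonged to that library, and the other samples of both groups were interleaved. The means were 65.5 ± 2.67% and 69.8 ± 6.04% (SD, n = 3), a difference of 4.22 percentage points with a two-sided exact permutation p of 0.4, where 3 samples against 3 allow no p below 0.1. Without AdSIRT4 replicate 1 the difference was 0.893 points. KPNA3 and KPNA4 together made up 16.8 ± 1.16% in AdCtrl and 15.9 ± 2.21% in AdSIRT4, and KPNA1, KPNA5 and KPNA6 together 17.7 ± 1.53% and 14.3 ± 3.86% (exact permutation p = 0.5 and 0.3). These differences of -0.885 and -3.33 points were 0.270 and -1.16 points without AdSIRT4 replicate 1.

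**Figure D4:**
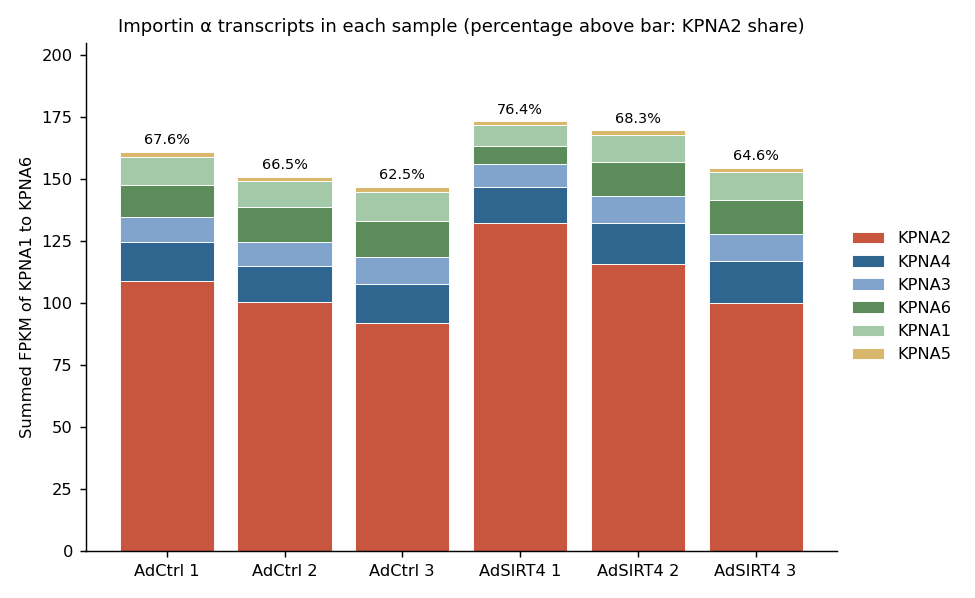
Summed FPKM of the 6 importin α genes in each sample (bar height, vertical axis from 0), divided by gene, with the KPNA2 share printed above each bar. KPNA2 fills 62.5 to 76.4% of each bar, the highest share in AdSIRT4 replicate 1, and the sums run from 147 to 173 FPKM.

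The ratios of importin α to its partners overlapped between the groups. The summed importin α was 153 ± 7.33 FPKM in AdCtrl and 166 ± 9.88 in AdSIRT4 (SD, n = 3; exact permutation p = 0.2), and 162 over AdSIRT4 replicates 2 and 3. Per importin α FPKM, KPNB1 was 0.334, 0.351 and 0.382 in AdCtrl and 0.219, 0.326 and 0.377 in AdSIRT4, and CSE1L was 0.413, 0.427 and 0.443 against 0.366, 0.398 and 0.429. In both ratios AdSIRT4 replicate 1 was the lowest sample and the groups overlapped (exact permutation p = 0.4 for KPNB1 and 0.3 for CSE1L). Taken by replicate number, the summed importin α was higher and both ratios were lower in AdSIRT4 in all 3 pairs. Both ratios have that sum as denominator, so the directions are not separate observations. A share over all genes was not computed for them. The FPKM of all genes, however, added up to 447768 in AdSIRT4 replicate 1 and to 359104 to 373951 in the other samples. The sums of importin α were not scaled to these totals, which do not enter the ratios. The higher sum in AdSIRT4 replicate 1 therefore cannot be told apart from the higher total of that library. The means without AdSIRT4 replicate 1 were 0.351 for KPNB1 and 0.414 for CSE1L, against 0.355 and 0.428 in AdCtrl. RAN per importin α FPKM was 1.05, 1.05 and 1.12 against 1.43, 1.00 and 1.06, with an exact permutation p of 0.8. The difference in this ratio, 0.0891, turned to -0.0429 without AdSIRT4 replicate 1.

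The rest of the transport pathway was described through lists of 79 further genes, of which 78 were tested. Of these, 0 were called at an adjusted p of 0.05, where 0.0113% of all tested genes were. An unadjusted p under 0.05 was found for 2, where 7.93% of all tested genes had one. These were the importin IPO13 and the mRNA export receptor NXF1. Of the 78 genes 42 lay above 0 and 36 below, beside 9459 above and 8261 below among all tested genes. The median log2 fold change of the 78 was 0.03, beside 0.02 over all tested genes. Without AdSIRT4 replicate 1, 0 of the 78 were called, where 6.71% of all genes were, and 9 had an unadjusted p under 0.05, where 24.3% of all genes did. Groups that stayed apart were found for 9 of the 78 with AdSIRT4 higher and for 6 with AdSIRT4 lower, against 9.66 and 9.77% of all tested genes.

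The list of other importins had 11 tested genes: carriers that bind cargo without an adaptor or with other ones, and the adaptor SNUPN. Of these, 2 lay above 0 (SNUPN at 0.13 and IPO5 at 0.0089) and 9 below, with a median of -0.14 on the log2 scale. IPO13 was at 37.8, 33.6 and 33.3 CPM in AdCtrl and at 24.7, 30.4 and 30.4 CPM in AdSIRT4, with all AdSIRT4 samples lower. Its log2 fold change was -0.29 ± 0.12 and, without AdSIRT4 replicate 1, -0.20 ± 0.07, and the adjusted p-values were 0.624 and 0.115 (edgeR's quasi-likelihood test, Benjamini-Hochberg). TNPO3, the carrier of SR splicing factors, was at 99.99, 100.3 and 101 CPM in AdCtrl and at 56.1, 97.1 and 95.0 CPM in AdSIRT4. Its log2 fold change was -0.28 with all samples and -0.07 without AdSIRT4 replicate 1, when the median of this list was 0.0053.

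All 5 other exportins lay below 0, with a median log2 fold change of -0.26, and without AdSIRT4 replicate 1 the median was -0.06 with 1 of 5 above 0. XPOT, which exports tRNA, and XPO7 had the smallest p-values of them, with log2 fold changes of -0.28 and -0.29 that came to -0.18 and -0.13 without that library. In the Ran cycle, which loads and hydrolyses the GTP on RAN, 6 of 7 genes lay above 0 with a median of 0.11, and 3 of 7 without AdSIRT4 replicate 1 with a median of -0.01. RANBP1, which helps to release RAN from export complexes, was at 184, 178 and 164 CPM in AdCtrl and at 307, 175 and 172 CPM in AdSIRT4. RANBP1 and RANGRF had fitted changes of 0.31 and 0.34 that turned to -0.02 and -0.04 without that library. The Ran cycle genes had a median length of 2.75 kb and the other exportins of 6.06 kb, and AdSIRT4 replicate 1 deviated by a median of 0.33 in the former and -0.61 in the latter.

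The mRNA export list had 22 of 25 genes above 0, with a median log2 fold change of 0.16, and 15 of 25 with a median of 0.03 without AdSIRT4 replicate 1. Its genes were short, with a median of 2.50 kb, and AdSIRT4 replicate 1 deviated by a median of 0.36 in them. NXF1, the receptor that takes mRNA through the pore, was at 43.3, 44.3 and 43.4 CPM in AdCtrl and at 53.3, 52.9 and 48.7 CPM in AdSIRT4. All AdSIRT4 samples of NXF1 lay above all AdCtrl samples, and replicate 1 did not stand apart. For NXF1 the log2 fold change was 0.24 ± 0.09 with all samples and 0.21 ± 0.06 without AdSIRT4 replicate 1, and the adjusted p-values were 0.597 and 0.0515 (edgeR's quasi-likelihood test, Benjamini-Hochberg). ALYREF, an adaptor that brings mRNA to NXF1, had a log2 fold change of 0.41 ± 0.20, or 0.19 ± 0.12 without AdSIRT4 replicate 1. Of 30 nucleoporins, 12 lay above 0 with a median of -0.02, and without AdSIRT4 replicate 1 19 did with a median of 0.02. NUP42 and RAE1, both with ties to mRNA export, had the smallest p-values among them and log2 fold changes of 0.21 ± 0.10 and 0.23 ± 0.12, or 0.14 and 0.11 without that library.

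**Figure D5:**
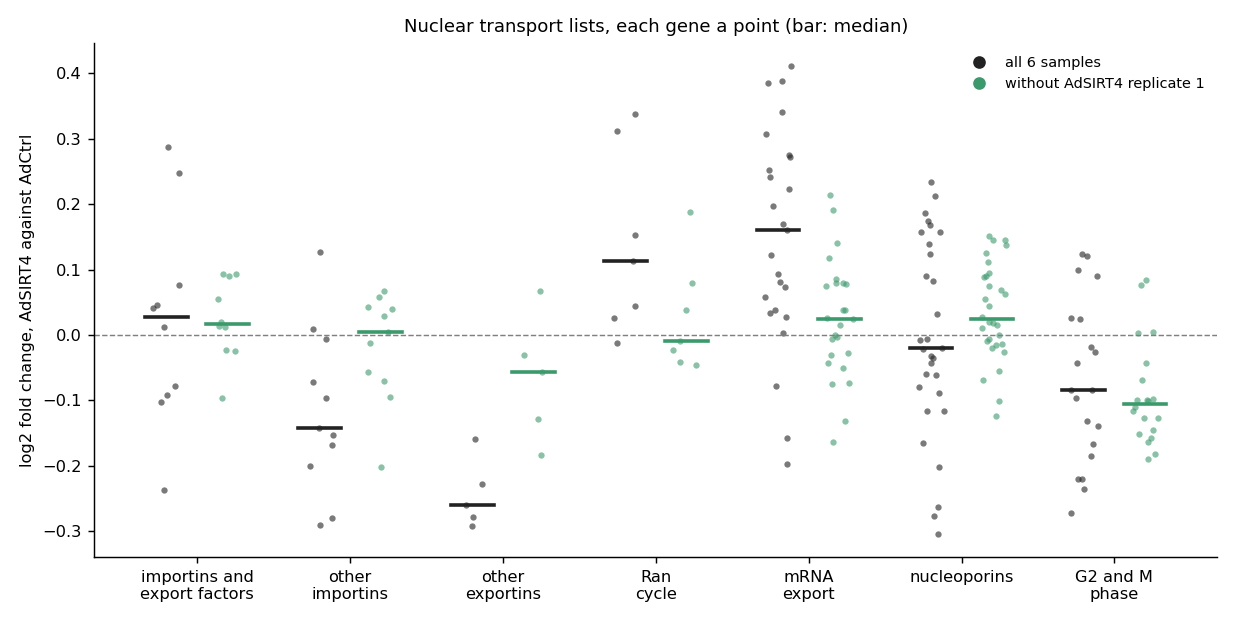
log2 fold change of AdSIRT4 against AdCtrl (vertical axis) for each tested gene of the 10 importins and export factors, of 5 further transport lists and of a list of G2 and M phase genes, from all 6 samples (black) and without AdSIRT4 replicate 1 (green), with the median of each list as a bar. The medians of the transport lists run from -0.26 (other exportins) to 0.16 (mRNA export) with all samples and from -0.06 to 0.03 without that library.

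KPNA2 is known to peak with cell division, so genes of the G2 and M phases were set beside it. Of 20 such genes 6 lay above 0 and 14 below, with a median log2 fold change of -0.08. Without AdSIRT4 replicate 1, 4 lay above 0 with a median of -0.10. KPNA2 had 0.25 and 0.09. Of all 17720 tested genes, 9459 and 8679 lay above 0 in these fits, with medians of 0.02 and -0.0046. Whether KPNA2 followed cell division in these cells was not tested. BUB1 and HMMR, with the smallest p-values of the list, had log2 fold changes of -0.22 ± 0.10 and -0.22 ± 0.11, with adjusted p-values of 0.673 and 0.685 (edgeR's quasi-likelihood test, Benjamini-Hochberg). None of the 20 genes was called in either fit. BUB1 was at 131, 124 and 116 CPM in AdCtrl and at 96.0, 113 and 109.5 CPM in AdSIRT4, with every AdSIRT4 sample below every AdCtrl sample. Such a separation downwards was found for 1 of the 20 genes, against 9.77% of all tested genes.

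Among the 10357 tested genes with a mean of at least 10 CPM, the pattern over the 6 samples most like that of KPNA2 belonged to NUDT9, TP53I3 and SETD9. Their root mean square difference from KPNA2, with each gene centred on its own mean log2 CPM, was 0.0355, 0.0397 and 0.0405. NUDT9 gave 20.7, 19.3 and 17.7 CPM in AdCtrl and 27.0, 21.6 and 19.2 CPM in AdSIRT4, with AdSIRT4 replicate 1 the highest sample as for KPNA2. RAN was the nearest of the other 9 transport genes, at rank 836 with a difference of 0.119, and KPNA6 the farthest, at rank 9603 with 0.504. With 6 samples, one of which stands apart, this likeness is a description of these libraries.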

How the data were processed

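Poly(A) RNA of 6 HK2 samples was sequenced. The authors deposited a table of counts per gene and a table of values without a stated unit, treated as FPKM: for 77.6% of tested genes the length implied by count, library total and value differed by less than 10% between all samples, and other genes, KPNA5 among them, varied more. The submitters' processing notes list fastp 0.21.0, HISAT2 2.1.0, StringTie 2.1.5, DESeq2 1.30.1 and hg38. The gene counter, its annotation and its handling of reads with several placements are not given in the sources used here.

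Counts were filtered with filterByExpr (minimum 10), scaled by TMM and tested with edgeR 4.0.16 (robust quasi-likelihood test, no block), with Benjamini-Hochberg adjustment over 17720 genes and a threshold of 0.05. The standard error is the log2 fold change divided by the square root of F. Single values per sample were compared by two-sided exact permutation tests. Scripts were tested on simulated data. Sequences came from GENCODE transcripts on GRCh38, and proteins were not used here. Alternatives used DESeq2 1.42.0, limma 3.58.1, RLE scaling, other filters, removal of the length trend, a replicate block and leaving out each sample.

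Same-numbered samples of the groups deviated together across genes (Pearson's r of 0.168, 0.155 and 0.167, against -0.180 to 0.027 for other pairs). The numbers come from the sample titles, which do not say what they mark, so the pairing is a hint from the data.

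The members and gene lists were chosen with earlier results of these data known. Named genes were the 10 members, the 2 genes with the smallest p in each other list, any gene of those lists with an adjusted p under 0.05, SIRT4, and the 3 genes most like KPNA2.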

Additional observations from a re-analysis of the deposited data

How the results depend on the processing

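Over 17 alternatives for each of the 10 transport genes, 0 of 170 values passed an adjusted p of 0.05 (smallest 0.204) and 162 kept their sign. The other 8 were KPNA5 with the length trend removed (0.0292, and 0.00357 with the replicate block as well), KPNB1 with sample quality weights (0.0358) and without AdSIRT4 replicate 1 (0.0546, in a leave-one-out range down to -0.167), and XPO1 on FPKM with limma (-0.0104 with a pseudocount of 1, with or without a filter at a mean of 1 FPKM, and -0.0106 with 0.1) and without AdCtrl replicate 3 (-0.000213, in a leave-one-out range up to 0.0260). RANBP1 and RANGRF turned to -0.0224 and -0.0408 without AdSIRT4 replicate 1, and leaving out other samples gave up to 0.457 and 0.540. The count of genes called over the whole table, which serves only as background, depended strongly on the setting. It was 2 as reported, 212 with DESeq2, 5 with every gene that had a count, 4 with at least 10 counts in every sample, 8 with the length trend removed, 1584 with limma voom and sample quality weights, and 0, 1 and 5 with limma on FPKM (pseudocounts 1 and 0.1, and 1 with the filter). It ran from 0 to 1227 when single samples were left out, with 1227 without AdSIRT4 replicate 1. The replicate block gave 1 called gene and changed no other call. Paired by replicate number, the KPNA2 share of importin α had an exact permutation p of 0.25 for the same difference of 4.22 points, the smallest p that 3 pairs allow, and leaving out single samples gave differences of 0.893 to 6.79 points. Of the other transport genes, 1 was called with sample quality weights, NXF1 (adjusted p = 0.0241 in limma). The SIRT4 change missed the threshold with limma on log2(FPKM + 1) (adjusted p = 0.0847) and without any one AdCtrl sample, where it was 6.10 to 6.52. Causes of these differences were not tested.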
